A study of Homo sapiens with 12 samples.

Results

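The genes described here are 9 parts of the insulin and insulin-like growth factor (IGF) signalling chain, listed together as targets of the microRNA miR-145-5p, a status taken from the list and not tested here: the receptors IGF2R, INSR and IGF1R, the adaptors IRS1 and IRS2, and the kinases PIK3CA, AKT1, AKT2 and RPS6KB1. They were chosen by name, and every array probe whose transcript belongs to 1 of these genes was collected, which gave 9 of the 18252 genes tested, with none lost to the filter on dim probes. Expression was measured on 12 one-colour Agilent exon arrays in MDA-MB-231, an established line of mesenchymal-like, triple-negative breast cancer cells. The study asked how much of the gene response to miR-145-5p needs Argonaute 2 (AGO2), a protein that microRNAs guide to target messages, which it represses.

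There were 4 groups of 3 arrays, described in the series as biological triplicates of this 1 line. The group cntrl received both a control mimic and a control silencing oligonucleotide. The group mimic145 received a precursor mimic of miR-145-5p with the control silencing oligonucleotide. The group sirnaAGO2 received a Dicer-substrate siRNA against AGO2 with the control mimic, and sirnaAGO2+mimic145 both active oligonucleotides. Mimic or control mimic was used at 5 nM, and the silencing or control siRNA at 500 pM for 72 h. The mimic raises the microRNA from outside the cell, and the silencing lowers but does not remove the AGO2 message. Each of the 6 slides held 2 arrays with the same replicate number, a group without the mimic in position 1 and the same arm with it in position 2. Position and mimic therefore cannot be told apart, and the control and silenced arms were never on the same slide.

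As background, insulin and the IGFs bind receptor tyrosine kinases, INSR and IGF1R, which phosphorylate the IRS adaptors. These recruit phosphoinositide 3-kinase, whose lipid product brings AKT to the membrane, and AKT then signals through mTOR to S6 kinase, which favours protein synthesis and also feeds back on the IRS proteins. IGF2R takes no part in this chain as a kinase: it carries IGF2 and lysosomal enzymes to the lysosome. A microRNA pairs mainly through its seed, bases 2 to 8 from the 5′ end, with sites in a message, and the usual outcome is a lower level of that message or less of its protein.

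The mature sequence of the transfected microRNA is printed because all comparisons with the mimic turn on it. It is taken from RefSeq (GRCh38.p14), where it lies on the plus strand of chromosome 5 at chr5:149430661-149430683, and the capitals mark the seed.
miR-145-5p: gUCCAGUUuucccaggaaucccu
A message that pairs with the whole seed holds AACTGGA, written as DNA. No transcript sequence was searched for this site here, so the values that follow describe messages listed as targets, not sites.

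Values are log2 of the quantile normalized signal, averaged over the probes of a gene, so that a difference of 1 is a doubling. They compare arrays for the same gene and cannot rank genes against each other. A gene was called when its p-value in limma, a linear model with the replicate number as a block, was under 0.05 after Benjamini-Hochberg adjustment over all 18252 genes. On the arrays, 60.5% to 77.3% of the spots were well above background. AGO2 was lower in sirnaAGO2 than in cntrl by 0.71 (61.0% of cntrl, adjusted p = 0.00492), in the direction of its label. With the mimic, AGO2 was 0.28 higher in control cells (adjusted p = 0.0298), a call that held in 14 of 27 other settings. In silenced cells the mimic difference of AGO2 was -0.06 (limma adjusted p = 0.607). The messages FSCN1 and F11R, well known for miR-145-5p sites, fell by 2.16 and 1.60 in control cells. All 6 markers of mesenchymal-like breast cells had probes well above background in 99.1% to 100% of probe readings. Of 8 luminal and epithelial markers, listed beforehand as low or absent in this line, 4 were under 50%. The other 4 went the other way: GATA3 was well above background in 100% of probe readings, KRT8 in 96.8%, EPCAM in 85% and ERBB2 in 82.8%. All 9 markers of blood, endothelial, fat and liver cells were under 50%. Their mean log2 signal ranged from 7.59 to 8.03 in cntrl, 7.67 to 8.07 in mimic145, 7.52 to 7.71 in sirnaAGO2 and 7.76 to 8.16 in sirnaAGO2+mimic145. Of these 9, CD14 was called higher with the mimic in both arms (by 0.37 and 1.01) and PECAM1 lower with silencing (by 0.68). In control cells the mimic also lowered the epithelial marker EPCAM (by 0.83). The part of these markers in the results was not tested. In bulk RNA, fewer cells that express a gene and less of its RNA per cell cannot be told apart.

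Of the 9 genes, 2 changed with the mimic in control cells, and both were receptors that fell: IGF2R, the largest fall, and INSR. Across all genes tested 22.6% were called in this comparison, made up of 11% of all genes that were lower and 11.6% that were higher, so that 2 of 9 is close to the share in the whole table. The median difference of the 9 genes was -0.06, beside 0.01 over all genes, with 5 below zero and 4 above. In AGO2-silenced cells the mimic changed 1 of the 9, again IGF2R, where 7.27% of all genes were called and 3.03% were lower. The median was then -0.13, beside 0.02 over all genes. Below zero were 8 of the 9, beside 8385 of all 18252 genes, and only IGF2R among the 8 was called. For silencing alone limma called 0 of the 9, with 2.58% of all genes called, and RPS6KB1 alone had an unadjusted p below the threshold, as did 19% of all genes. For the difference between the 2 mimic effects limma also called 0 of the 9, with 0.011% of all genes called, and IGF2R alone fell below the threshold unadjusted, as did 16.8% of all genes.

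**Figure D1:**
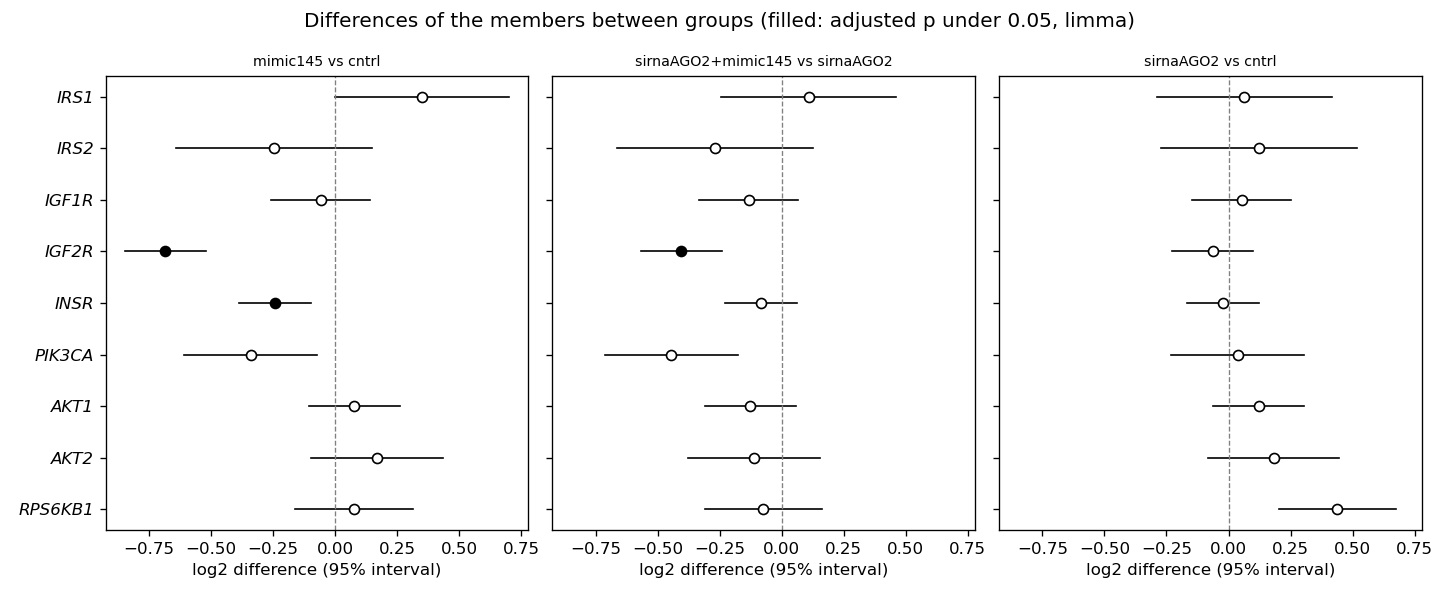
Log2 differences of the 9 genes with their 95% intervals for the mimic in control cells, the mimic in AGO2-silenced cells and the silencing alone, 3 arrays a group. Filled points passed an adjusted p of 0.05 in limma: IGF2R lies at -0.68 and -0.40 in the first and second panel and INSR at -0.24 in the first, while RPS6KB1 lies farthest right in the third at 0.44 without passing.

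IGF2R, the receptor that clears IGF2 and sorts lysosomal enzymes, was read by 47 probes. Its signal was 9.64, 9.50 and 9.88 on the 3 cntrl arrays and 8.89, 8.96 and 9.12 on the 3 mimic145 arrays. With AGO2 silenced it was 9.57, 9.54 and 9.73 in sirnaAGO2 and 9.22, 9.14 and 9.26 in sirnaAGO2+mimic145. Both groups with the mimic lay below both groups without it, with no array overlapping, and the arrays with the mimic alone lay below those with mimic and silencing. With the mimic, 13.5% of all genes were lower without overlap in control cells and 10.2% in silenced cells. The ordered means were 9.68 ± 0.19 (SD, n = 3) in cntrl, 9.61 ± 0.10 in sirnaAGO2, 9.21 ± 0.06 in sirnaAGO2+mimic145 and 8.99 ± 0.12 in mimic145, and the first pair of neighbours did not differ beyond their spread.

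With the mimic IGF2R fell by 0.68 in control cells (SE 0.07, limma adjusted p = 0.000452), to 62.2% of the cntrl level. Within the 3 slides that held both groups the differences were -0.75, -0.54 and -0.76. In silenced cells it fell by 0.40 (SE 0.07, limma adjusted p = 0.0198), to 75.5% of the sirnaAGO2 level, with -0.35, -0.40 and -0.47 within the slides. Silencing alone gave -0.06 (95% interval -0.23 to 0.10, limma adjusted p = 0.669). The fall was smaller in silenced cells in every replicate, by 0.28 on average (95% interval 0.05 to 0.51), and this difference did not pass after adjustment (limma, unadjusted p = 0.0229, adjusted p = 0.231). The arrays of sirnaAGO2+mimic145 stood 0.22 above those of mimic145 without overlap, as did 6.22% of all genes, with a limma adjusted p of 0.129. In that contrast 0 of the 9 genes and 4.31% of all genes were called.

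The fall of IGF2R ran along nearly all of its probes. Of the 47 probes, 46 were lower with the mimic in control cells in all 3 pairs, with a median of -0.71 over the probes. In silenced cells 46 were lower on average, 43 of them in all 3 pairs, with a median of -0.39. The remaining probe in control cells was 0.35 higher with the mimic and 1.14 higher with silencing, unlike the rest of the gene. Probes of a gene share their RNA and are no replicates, so these counts describe where along the message the difference was seen and carry no test. The call in control cells held in 26 of 27 other settings, and the call in silenced cells in 15 of 27, where its adjusted p ran from 0.00865 to 0.325 while its size stayed between -0.44 and -0.35. Leaving out any 1 of the 3 sirnaAGO2 arrays (adjusted p = 0.0607, 0.0983 and 0.0828) or sirnaAGO2+mimic145 replicate 2 or 3 (0.0578 and 0.0846) ended the silenced call.

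**Figure D2:**
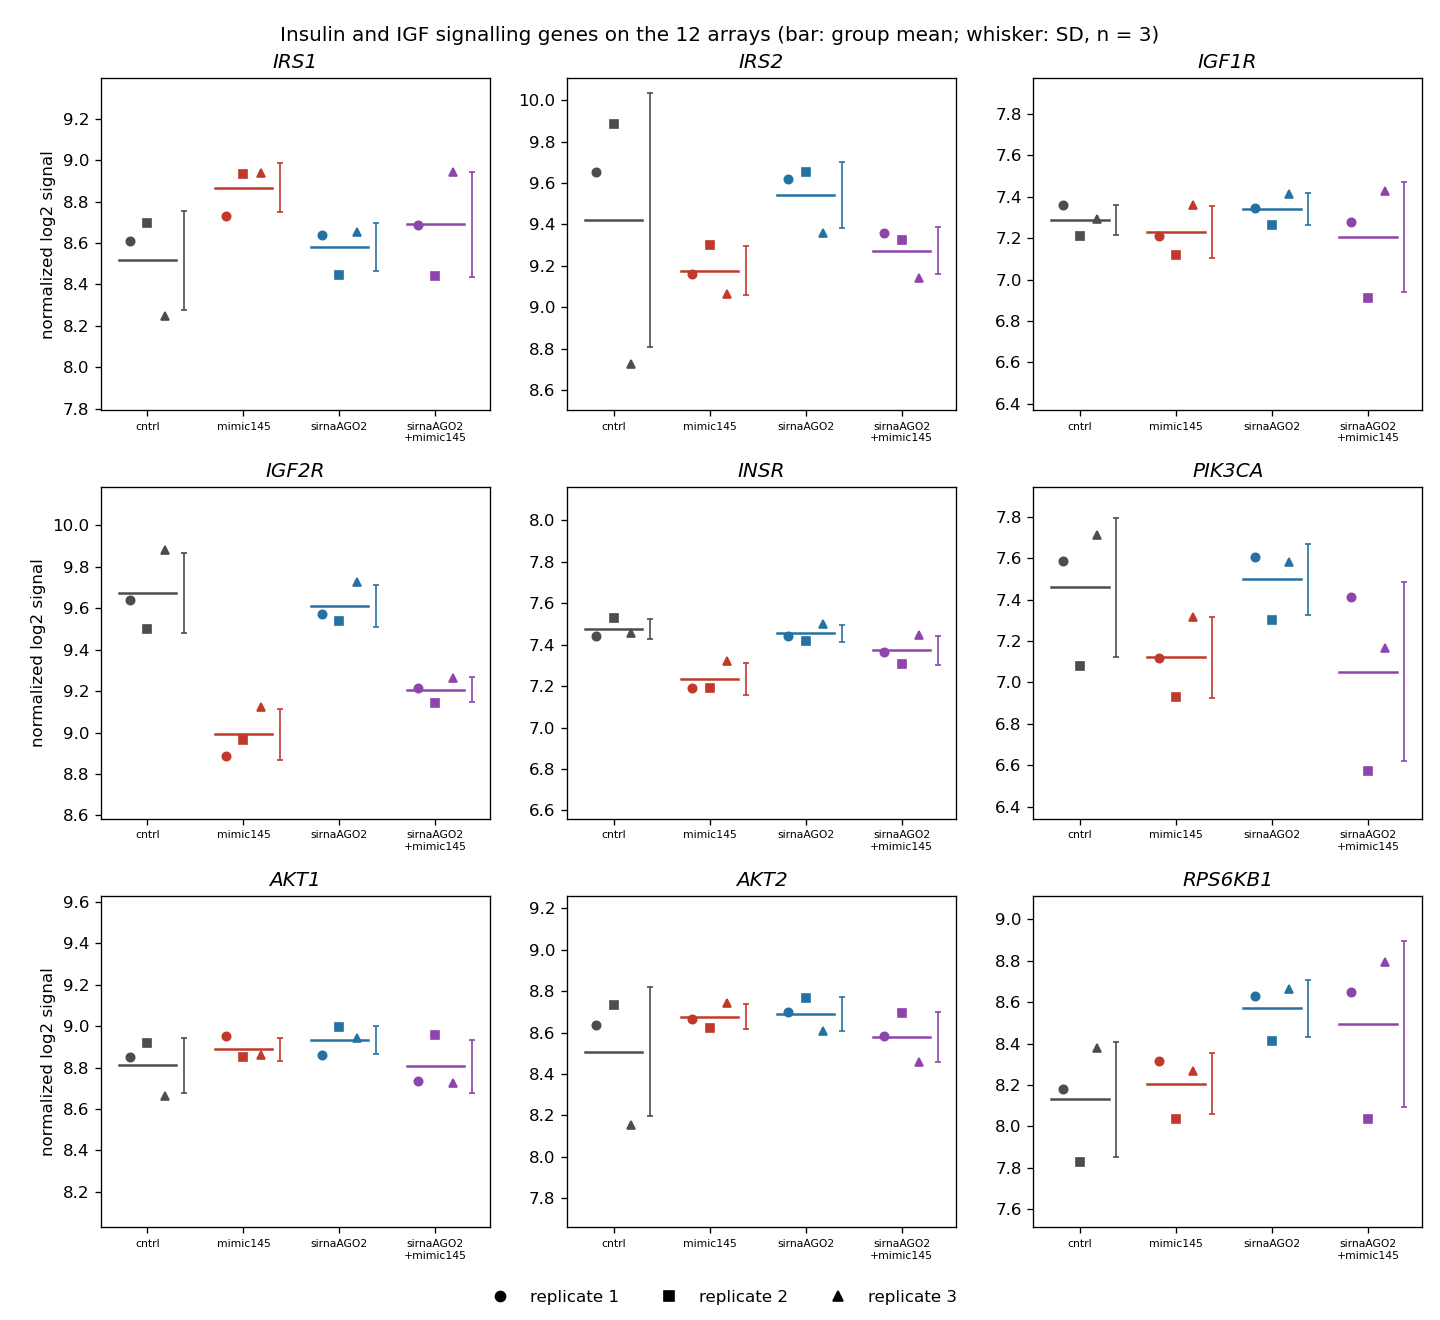
Normalized log2 signal of each of the 9 genes on the 12 arrays. Symbols mark the replicate number, horizontal bars the group mean and whiskers the SD of 3 arrays, and every panel spans the same log2 range. IGF2R falls from a mean of 9.68 in cntrl to 8.99 in mimic145 with no overlap, as do 13.5% of all genes. In IRS2 and AKT2 the third cntrl array lies well below the other arrays of its group.

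INSR, the insulin receptor, gave 7.44, 7.53 and 7.46 in cntrl and 7.19, 7.19 and 7.32 in mimic145. In the silenced arm it gave 7.44, 7.42 and 7.50 in sirnaAGO2 and 7.36, 7.31 and 7.45 in sirnaAGO2+mimic145. The control arm separated without overlap, as did 13.5% of all genes in the same direction, while the silenced groups overlapped. INSR fell by 0.24 with the mimic in control cells (SE 0.06, limma adjusted p = 0.0265), to 84.6% of cntrl, and was lower by 0.25, 0.34 and 0.13 in the 3 pairs. In silenced cells the difference was -0.08 (95% interval -0.23 to 0.06, limma adjusted p = 0.427), and that between the arms was 0.16 (95% interval -0.05 to 0.36, adjusted p = 0.406), so no difference in the response was shown.

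Of the 19 INSR probes kept, 18 were lower with the mimic in control cells, 14 of them in all 3 pairs, and their median was the same to 2 decimals for the probes of each of the 2 transcripts that the array represents (-0.25). The INSR call was the less firm of the pair: it was lost in 14 of 27 other settings, among them 75th percentile scaling (-0.16, limma adjusted p = 0.206) and leaving out cntrl replicate 2 (-0.19, adjusted p = 0.112) or any whole replicate number. Without mimic145 replicate 1 the adjusted p was 0.097, without mimic145 replicate 2 it was 0.0842, and without cntrl replicate 1 it was 0.0741.

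IGF1R, the receptor tyrosine kinase for IGF1 and IGF2, did not pass in any comparison. It gave 7.36, 7.21 and 7.29 in cntrl and 7.21, 7.12 and 7.36 in mimic145, then 7.35, 7.26 and 7.41 in sirnaAGO2 and 7.28, 6.91 and 7.43 in sirnaAGO2+mimic145. All 4 groups overlapped. The mimic difference was -0.06 in control cells (95% interval -0.26 to 0.14, limma adjusted p = 0.687) and -0.13 in silenced cells (95% interval -0.33 to 0.07, adjusted p = 0.347). The lower end of the control interval is a level of 83.7% of cntrl, so larger falls of the message lie outside it. Of its 19 probes 11 were lower with the mimic in control cells and 8 higher, in contrast to the near uniform probes of IGF2R, and IGF1R was called in 0 of 27 other settings, at adjusted p-values from 0.398 to 0.991.

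The adaptors, which dock to the active receptors, were represented by few probes. IRS1, with 3, gave 8.61, 8.69 and 8.25 in cntrl and 8.73, 8.93 and 8.94 in mimic145, followed by 8.64, 8.45 and 8.66 in sirnaAGO2 and 8.69, 8.44 and 8.94 in sirnaAGO2+mimic145. All mimic145 arrays lay above all cntrl arrays, as in 14.9% of all genes. The difference of 0.35 did not pass (95% interval -0.00 to 0.70, limma adjusted p = 0.143), and its 3 pairs were uneven at 0.12, 0.24 and 0.69. In silenced cells it was 0.11 (95% interval -0.24 to 0.46, adjusted p = 0.678).

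The position of IRS1 rested partly on the third cntrl array: without it the difference in control cells was 0.15 (limma adjusted p = 0.465). In the table that the authors normalized it was 0.56 and passed (adjusted p = 0.0459), the only 1 of 27 settings in which it did. By probe the differences were 0.02, 0.48 and 0.56, so that 1 probe was flat and the others higher. No fall of this message with the mimic was detected in either arm.

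IRS2, the second adaptor, gave 9.66, 9.88 and 8.73 in cntrl and 9.16, 9.30 and 9.07 in mimic145. The silenced arm gave 9.62, 9.65 and 9.36 without the mimic and 9.36, 9.32 and 9.14 with it. The third cntrl array stood 0.93 below the next of its group, whereas the silenced groups were tight and, by a margin in the third decimal, did not overlap, as in 10.2% of all genes lower in this comparison. The mimic difference was -0.24 in control cells (SE 0.17, limma adjusted p = 0.352) and -0.27 in silenced cells (SE 0.17, adjusted p = 0.337), and it was below zero in all 3 silenced pairs (-0.26, -0.33 and -0.22). Without cntrl replicate 3 it was -0.52 in control cells and passed (adjusted p = 0.00616), and without replicate 3 in all groups -0.54 (adjusted p = 0.0306), so 1 array decided whether IRS2 was called.

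PIK3CA encodes the catalytic subunit p110 alpha of phosphoinositide 3-kinase. It gave 7.59, 7.08 and 7.71 in cntrl and 7.12, 6.93 and 7.32 in mimic145. In sirnaAGO2 it gave 7.61, 7.30 and 7.58, and in sirnaAGO2+mimic145 7.41, 6.57 and 7.17. The second array was the lowest of its group in all 4 groups, so the groups overlapped although every pair was lower with the mimic in both arms.

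The mimic difference of PIK3CA was -0.34 in control cells (pairs -0.47, -0.15 and -0.39, limma adjusted p = 0.0713) and -0.45 in silenced cells (pairs -0.19, -0.73 and -0.41, adjusted p = 0.0542). Neither passed, and the arms differed by -0.11 (95% interval -0.49 to 0.27, adjusted p = 0.768). All 19 kept probes were lower in control cells, 17 of them in every pair, and 16 of 19 in silenced cells. Only 8 of the 19 were well above background on all 12 arrays, and with those alone the differences were -0.24 (limma adjusted p = 0.0383) and -0.14 (adjusted p = 0.247). The array with the lowest PIK3CA signal, sirnaAGO2+mimic145 replicate 2, was also the one with the smallest share of spots above background, 60.5%, and the part of this in the result was not tested. Without sirnaAGO2+mimic145 replicate 1 the difference in silenced cells passed (-0.59, adjusted p = 0.0159), and without that group's replicate 1 or 2 the unchanged difference in control cells passed (adjusted p = 0.0288 and 0.047).

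**Figure D3:**
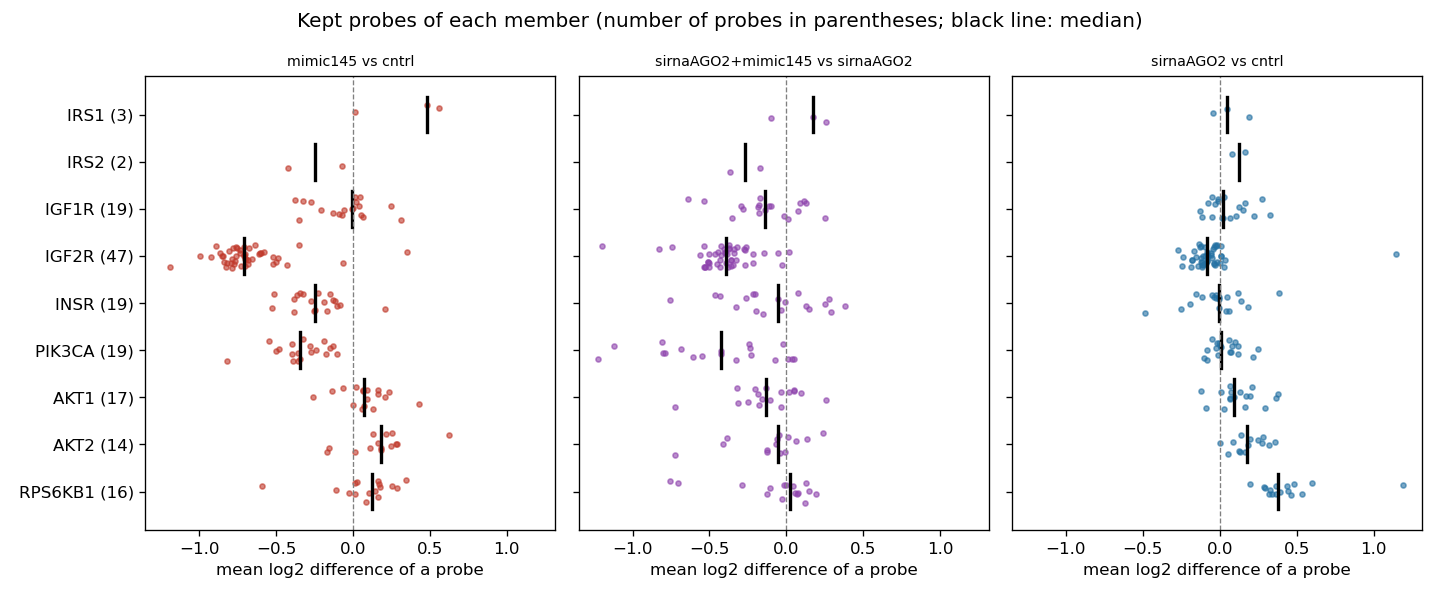
Mean log2 difference of every kept probe of the 9 genes, 3 arrays a group, for the mimic in control cells, the mimic in silenced cells and silencing alone, with the median as a black line. IGF2R probes cluster at a median of -0.71 in the first panel and -0.39 in the second, all 19 PIK3CA probes lie below zero in the first, and all 16 RPS6KB1 probes lie above zero in the third.

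The AKT kinases, which carry the signal from the membrane lipids to growth and survival targets, stayed close to the control level. AKT1 gave 8.85, 8.92 and 8.66 in cntrl, 8.95, 8.85 and 8.86 in mimic145, 8.86, 8.995 and 8.94 in sirnaAGO2 and 8.73, 8.95 and 8.73 in sirnaAGO2+mimic145. AKT2 gave 8.64, 8.73 and 8.15, then 8.67, 8.62 and 8.74, then 8.70, 8.77 and 8.61, and last 8.59, 8.69 and 8.46 in the same order of groups. In both genes the third cntrl array was the lowest of its group, by 0.19 in AKT1 and 0.49 in AKT2, and the groups overlapped.

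For AKT1 the mimic difference was 0.08 in control cells (95% interval -0.11 to 0.26, limma adjusted p = 0.537) and -0.13 in silenced cells (95% interval -0.31 to 0.06, adjusted p = 0.326). For AKT2 it was 0.17 (95% interval -0.10 to 0.43, limma adjusted p = 0.34) and -0.11 (95% interval -0.38 to 0.15, adjusted p = 0.559). The upward value of AKT2 in control cells rested on replicate 3 (pairs 0.03, -0.11 and 0.59): without replicate 3 in all groups it was -0.04, and without cntrl replicate 3 it was 0.01. The AKT1 value was 0.02 under either omission. Both genes were lower in all 3 pairs in silenced cells, but the differences between the arms, -0.21 and -0.28, did not pass (adjusted p = 0.393 and 0.419). Neither gene was called in any of 27 other settings in either arm.

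RPS6KB1, the S6 kinase at the end of the chain, gave 8.18, 7.83 and 8.38 in cntrl and 8.31, 8.04 and 8.27 in mimic145. It gave 8.63, 8.41 and 8.66 in sirnaAGO2 and 8.65, 8.04 and 8.79 in sirnaAGO2+mimic145. The mimic difference was 0.08 in control cells (95% interval -0.16 to 0.31, limma adjusted p = 0.647) and -0.08 in silenced cells (95% interval -0.31 to 0.16, adjusted p = 0.667), with overlapping groups.

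The larger contrast for RPS6KB1 was with silencing. All sirnaAGO2 arrays were above all cntrl arrays, as in 8.48% of all genes, and the 3 replicate differences were 0.45, 0.58 and 0.28. The mean difference of 0.44 (SE 0.10, 136% of cntrl) had an unadjusted p of 0.00228 and an adjusted p of 0.0642 in limma, which did not pass. All 16 kept probes were higher in all 3 replicates, with a median of 0.38. It passed in 5 of 26 other settings, among them 75th percentile scaling (adjusted p = 0.0396) and leaving out sirnaAGO2+mimic145 replicate 2 (adjusted p = 0.0321). With slide as a random block in place of the replicate number, the limma adjusted p was 0.495. This was the only setting to allow for the separate slides of the 2 groups. It also dropped the replicate block, so the part of the slides in that value was not tested. An exact permutation test of 3 arrays against 3 gave p = 0.1, two-sided, the smallest it can give.

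The comparisons that cross both treatments share the arrays above and are given only as levels side by side. Against cntrl, sirnaAGO2+mimic145 had IGF2R at -0.47 (limma adjusted p = 0.0033), PIK3CA at -0.41 (adjusted p = 0.042) and RPS6KB1 at 0.36 (adjusted p = 0.0407), where 19.1% of all genes were called. These 3 of the 9 genes thus passed against cntrl when both oligonucleotides were present, IGF2R and PIK3CA lower and RPS6KB1 higher. For PIK3CA and RPS6KB1 the arrays of these groups, which never shared a slide, overlapped. Other settings are not given for this contrast. INSR was at -0.10 (adjusted p = 0.295) and the other 5 members also did not pass.

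The rest of the pathway was followed with a list of 67 genes in 10 roles, of which 64 were tested. With the mimic in control cells 16 were called (25%, beside 22.6% of all genes), 6 lower and 10 higher, with a median of 0.03. In silenced cells 7 were called (10.9%, beside 7.27%), 1 lower and 6 higher, and with silencing alone 1 (1.56%, beside 2.58%). The difference between the mimic effects was called for 0 in limma, with 8 below the threshold before adjustment. The list was thus called at about the rate of the whole table, and its calls with the mimic ran in both directions.

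Upstream of the receptors, the ligand genes INS, IGF1 and IGF2 did not pass in either arm. Among 11 binding proteins and their proteases the mimic raised 2 in control cells. IGFBP1, a secreted protein that holds IGFs away from their receptors and whose gene is a classical target repressed by insulin through FOXO1, gave 8.24, 8.42 and 7.61 in cntrl and 9.69, 9.66 and 9.39 in mimic145. It rose by 1.49 (SE 0.10, limma adjusted p = 9.35e-05), the largest change in the list, with no overlap, as in 14.9% of all genes higher. In silenced cells it went from 8.40, 8.30 and 7.94 to 9.03, 9.09 and 8.75 and rose by 0.74 (SE 0.10, adjusted p = 0.0106). The rise was smaller there in all 3 replicates, by 0.74 (95% interval 0.41 to 1.08), but this did not pass after adjustment over all genes (unadjusted p = 0.000677, adjusted p = 0.0835).

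IGFBP3, the main IGF carrier in serum, rose by 0.63 in control cells (limma adjusted p = 0.0045) and by 0.47 in silenced cells (adjusted p = 0.0412). IGFBP7, a relative with weak IGF binding, was called in silenced cells at 0.34 (adjusted p = 0.0407) and was the 1 gene of the list called with silencing alone, at -0.41 (adjusted p = 0.0387). FOXO1, the transcription factor that AKT keeps out of the nucleus, rose by 0.63 in control cells (adjusted p = 0.00664) on 3 probes.

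**Figure D4:**
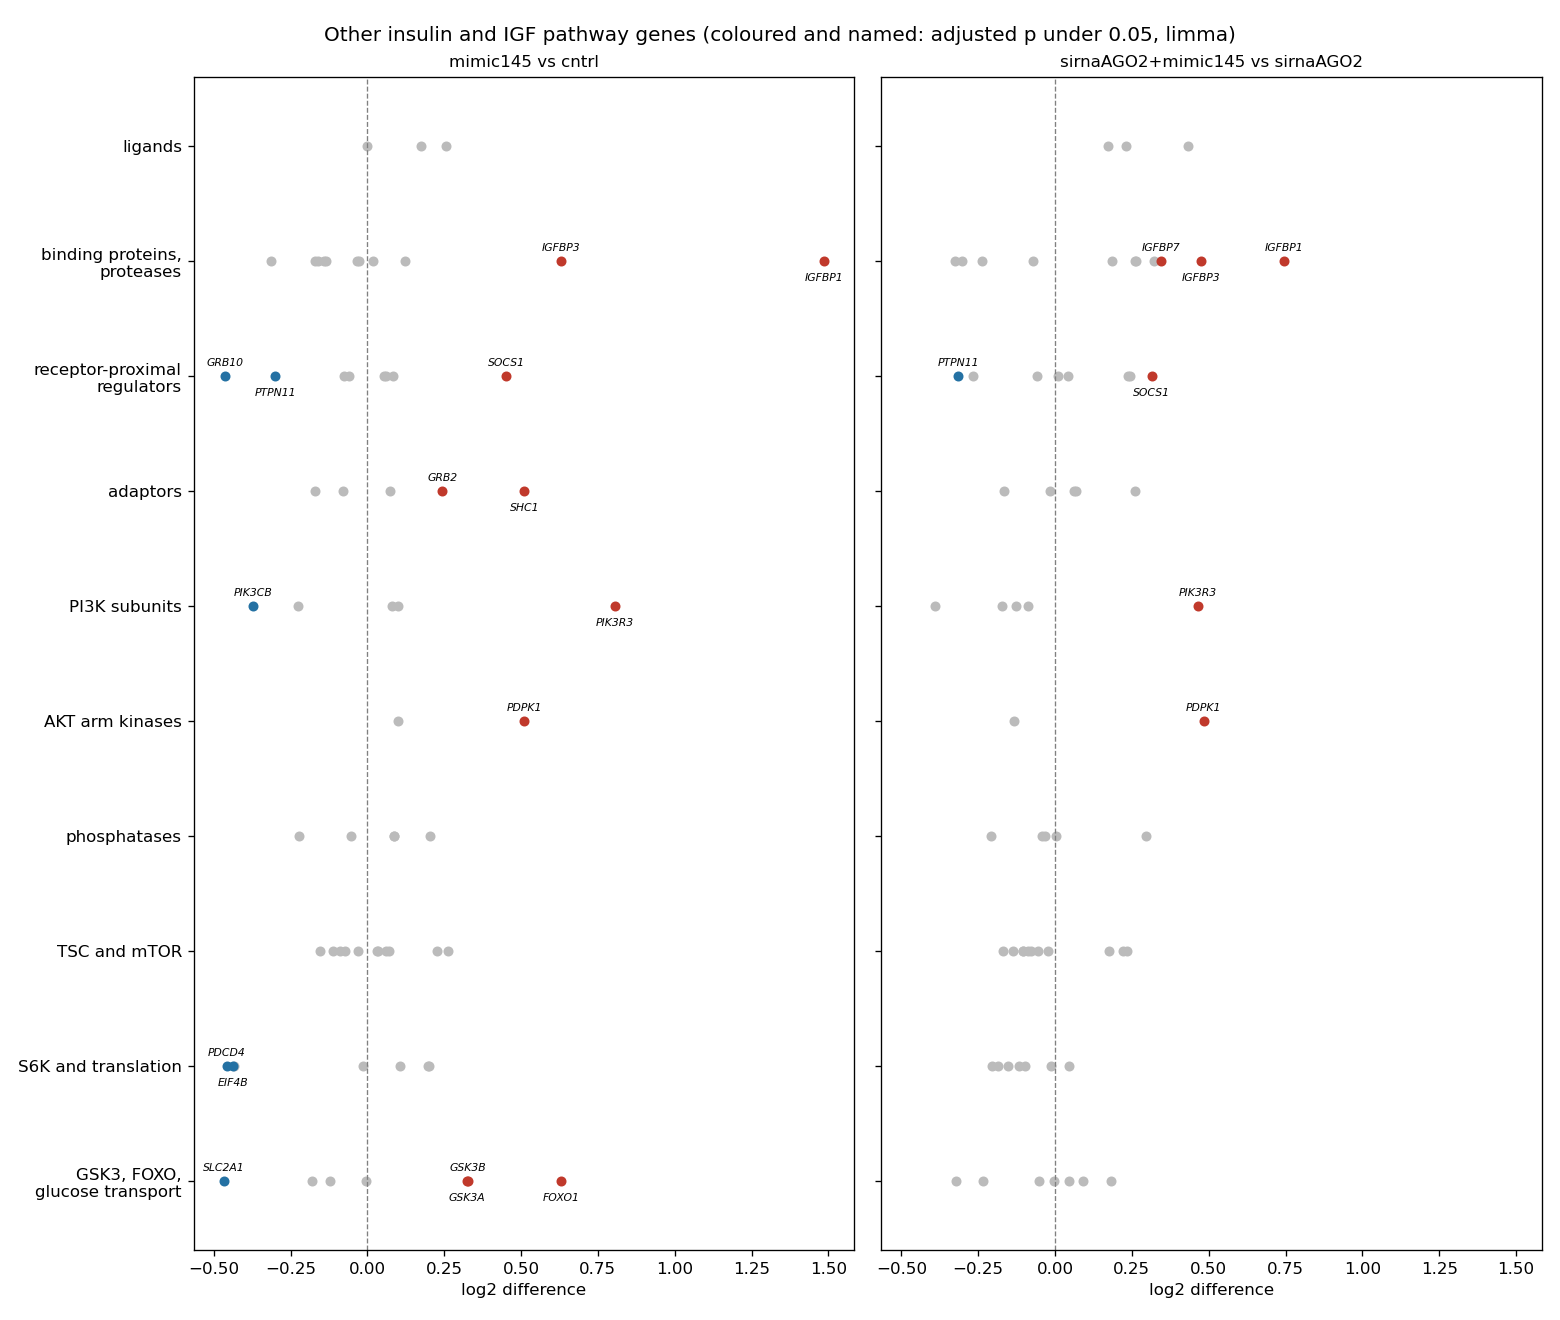
Log2 differences of the 64 other pathway genes by role, for the mimic in control cells (left) and in AGO2-silenced cells (right). Genes named and coloured passed an adjusted p of 0.05 in limma, red higher and blue lower. IGFBP1 lies farthest right in both panels, at 1.49 and 0.74, and no gene of the phosphatase or TSC and mTOR roles passed.

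Next to the receptors, GRB10, an adaptor that damps INSR and IGF1R, fell by 0.46 in control cells (limma adjusted p = 0.0028). It went from 9.36, 9.24 and 9.25 to 8.72, 8.87 and 8.86 without overlap, as in 13.5% of all genes lower. PTPN11, the phosphatase SHP2 that passes receptor signals on to RAS, was the 1 gene of the list that fell in silenced cells, by 0.32 (adjusted p = 0.0319), and it fell by 0.30 in control cells (adjusted p = 0.0127). SHC1, an adaptor that links the receptors to RAS in parallel to the IRS proteins, rose by 0.51 in control cells (adjusted p = 0.0156), while IRS1 and IRS2 did not pass. The receptor relative INSRR was at -0.06 (adjusted p = 0.739), and the third IRS relative on the list, IRS4, had 1 probe and was too dim to be tested.

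Among phosphoinositide 3-kinase subunits, PIK3CB, the catalytic relative of PIK3CA, fell by 0.37 in control cells (limma adjusted p = 0.029) and was at -0.39 in silenced cells (adjusted p = 0.0522), values close to those of PIK3CA in both arms. PIK3CD was at -0.22 (adjusted p = 0.151). The regulatory subunit gene PIK3R3 went the other way: it gave 6.97, 7.03 and 6.85 in cntrl and 7.98, 7.77 and 7.51 in mimic145 and rose by 0.80 (adjusted p = 0.000494), and by 0.46 in silenced cells (adjusted p = 0.0216). Of the kinases of the AKT arm, PDPK1, which phosphorylates AKT and S6 kinase, rose by 0.51 in control cells and by 0.48 in silenced cells (adjusted p = 0.00717 in the latter).

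None of the 5 phosphatases and none of the 11 genes of the TSC and mTOR group was called in either arm. Of the outputs of S6 kinase, EIF4B, a translation initiation factor phosphorylated by it, fell by 0.44 in control cells (limma adjusted p = 0.00402), and PDCD4, a translation inhibitor that it marks for destruction, fell by 0.46 (adjusted p = 0.035). RPS6KB2, the relative of RPS6KB1, was at 0.20 (adjusted p = 0.162). SLC2A1, the basal glucose transporter GLUT1, fell by 0.47 in control cells (adjusted p = 0.00989) from 10.98, 10.96 and 10.88 to 10.58, 10.45 and 10.39. The calls not described so far were GRB2, GSK3A and GSK3B in control cells and SOCS1 in both arms, all higher, and these were named after their values were seen. In control cells the calls held in 26 of 27 other settings for IGFBP1 and PIK3R3, 25 for FOXO1 and GRB10, 24 for SLC2A1 and IGFBP3, 22 for EIF4B, 21 for SHC1, 13 for PIK3CB and 12 for PDCD4. In silenced cells they held in 21 for PDPK1, 18 for IGFBP1, 14 for PIK3R3, 10 for PTPN11 and 9 each for IGFBP3 and IGFBP7.

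For the called members the genes with the most similar pattern over the 12 arrays were taken from all genes with at least 3 probes. For IGF2R these were PCYOX1, UXS1 and FTH1, with Pearson r of 0.985, 0.981 and 0.977. For INSR they were WFDC3, AS3MT and SIRT5, with r of 0.944, 0.943 and 0.938. The arrays share their slides, replicate numbers and treatments, so these coefficients are a description and carry no p-value. All 6 were lower with the mimic in control cells, by 0.58 (WFDC3) to 1.01 (UXS1). They were picked on these same arrays for likeness to members that fell, so this shared direction follows largely from the selection.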

How the data were processed

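The authors labelled total RNA with 1 dye, hybridised it to SurePrint G3 Human Exon arrays and read the scans with Agilent Feature Extraction 10.7.3.1. The deposited array files hold a processed intensity per spot, corrected for background. Quantile normalized log2 values deposited by the authors in 1 table served as an alternative. Here control spots and 304 to 462 outlier spots per array were left out, intensities under 1 were set to 1 (there were 0), quantile normalized, log2 transformed and averaged per probe. No spot was saturated. Transcript accessions gave a gene for 209671 of 233164 probes (RefSeq, GRCh38.p14). A probe was kept where the 3 arrays of any group all had it well above background (142947 probes), and averaging per gene left 18252 genes. Precision is limited by how few arrays there are, with a median SE of 0.099 for the mimic in control cells.

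limma 3.58.1 in R 4.3.3 (with data.table, version 1.17.8; plots with Python 3.11.15, matplotlib 3.10.9, pandas 2.3.3) was fitted to all 12 arrays with the group and the replicate number, two-sided. The methods name a paired test, and arrays with the same number tended to deviate together, so the number was kept as a block. Their r ran from 0.148 to 0.576 over 18 pairs, some of which also shared a slide. For arrays that differed in number and group it ran from -0.497 to 0.201 over 36 pairs, so the ranges overlapped. The procedure was tested on simulated data. Alternatives were another scaling, normexp with an offset of 50, the authors' table, other probe filters, the median over probes, no block, slide as a block, fewer arrays, an intensity trend, the methods' t-test, and leaving out arrays. The members, the pathway list and the markers were chosen with earlier results of these data known. Named beside the members were AGO2, FSCN1, F11R, the members' relatives (not all are reported here), up to 5 pathway genes with the largest rise and up to 5 with the largest fall among those called and changed alike in all 3 pairs in each comparison, and the 3 genes most like each called member.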

Additional observations from a re-analysis of the deposited data

Results flagged for a closer look

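In 2 of the 64 tested genes of the pathway list every replicate moved one way with the mimic in control cells and the other way in AGO2-silenced cells. The share of all genes with such a pattern is not given here, so the count is only a description. IGFBP6, an IGF binding protein with a preference for IGF2, was at -0.13 in control cells and 0.26 in silenced cells, a difference of 0.40 (limma, unadjusted p = 0.00709, adjusted p = 0.156). RPS6KB2, the S6 kinase relative of RPS6KB1, was at 0.20 and -0.10, a difference of -0.30 (unadjusted p = 0.0514, adjusted p = 0.301). Neither difference passed the adjustment over all genes.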

How the results depend on the processing

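None of the 9 genes reversed a called direction in any of 27 alternatives. With the mimic in control cells, 2 members were called. The count was 3 with normexp (3 lower) and 3 with the authors' table (2 lower, 1 higher). It was 1 with 75th percentile scaling, with the median over probes and without the replicate block. It was also 1 with slide as a fixed block and with only the arrays compared, and 0 with the methods' t-test. It was 1 to 2 when a replicate number and 1 to 3 when a single array was left out. With the mimic in silenced cells, 1 was called: 0 without the replicate block, with slide fixed, with only the arrays compared and with the methods' t-test, 0 to 0 without a replicate number and 0 to 2 without an array. With silencing alone 0 were called: 1 with 75th percentile scaling, normexp, probes well above background on all arrays and the intensity trend, and 0 to 1 without an array. The difference between the mimic effects stayed at 0 throughout. Without the block 1997, 78, 48 and 0 of all genes were called in these 4 comparisons, in place of 4119, 1327, 471 and 2. The methods' t-test, paired by replicate, called 0 genes in all 4 after adjustment; at an unadjusted p under 0.05 it called 1, 4, 1 and 0 members. The causes were not tested. Signal over background limits PIK3CA, IGF1R and INSR most, with 8, 10 and 11 of 19 probes each above background on all arrays, and IRS1 and IRS2 rest on 3 and 2 probes.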
